A study of Mus musculus with 19 samples.

Results

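The 9 genes described here carry retinol between cells, take it up, turn it into retinoic acid and break retinoic acid down: Rbp4, Ttr, Stra6, Rdh10, Dhrs3, Aldh1a1, Aldh1a2, Crabp2 and Cyp26a1. They were taken from the deposited expression tables by gene symbol, and all 9 were found, as 14 of 30455 RefSeq transcripts and 9 of 23337 gene symbols. Each gene with several transcripts was represented by the one with the highest mean count. RNA was sequenced after removal of ribosomal RNA in 11 libraries. The endoderm (ysE) and the mesoderm of the FVB visceral yolk sac (VYS) at E9.25 had 2 libraries each (A and B, stranded dUTP protocol), FVB ysE at E12.5 had 1 library (non-stranded), and FVB fetal liver at E12.5 had 2 (A and B, ScriptSeq protocol). Cystic embryoid bodies (cystic EBs), fluid-filled spheres that embryonic stem (ES) cells form in culture, had 2 libraries at d10 and 2 at d15 of differentiation. On both days replicate A came from ES clone A9 (ScriptSeq) and replicate B from ES clone JN (dUTP), both C57Bl/6 x 129. Tissue of whole litters was pooled within a sample, and the yolk sac layers were parted by hand after dispase digestion, with vessels and basement membrane going to the mesoderm samples. The cystic EB libraries of RNA thus represent 2 clones, and clone and protocol cannot be told apart. Methylation was read in tissues and cystic EBs from crosses of CAST and FVB in both directions, and H3K4me3 in FVB yolk sac.

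Retinol travels in plasma bound to retinol binding protein, which is itself held by transthyretin. Inside the cell retinol is oxidised to retinaldehyde, which is either reduced back to retinol or oxidised further to retinoic acid, a ligand of nuclear receptors that act on genes of embryonic patterning. Enzymes of the CYP26 family then inactivate retinoic acid. The yolk sac endoderm faces the maternal side and secretes many of the plasma proteins that the fetal liver makes later, carriers of retinol among them.

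Summed counts ranged from 40453779 (ysE E12.5) to 169981821 (ysE E9.25 B), with a median of 96882725. The layers were not free of each other. The 12 yolk sac endoderm markers stood in mesoderm at a median of 12.2% of their ysE level in RPKM (reads scaled to transcript length and library size), with a range of 9.0% to 28.2%, and their summed RPKM was 12812 and 14299 in the ysE libraries and 1383 and 2479 in the mesoderm libraries. In the other direction, the 14 mesoderm and vessel markers stood in ysE at a median of 3.84% of their mesoderm level, and the 8 erythroid markers at 3.04%. Afp, the highest of the endoderm markers, had 6071 and 6628 RPKM in ysE and 700 and 1255 in mesoderm, and Col3a1, the highest of the mesoderm markers, had 15.6 and 23.4 in ysE and 774 and 644 in mesoderm. No marker of these 3 lists was at 0 in an E9.25 library. Differences between the layers are therefore given beside these shares.

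**Figure D1:**
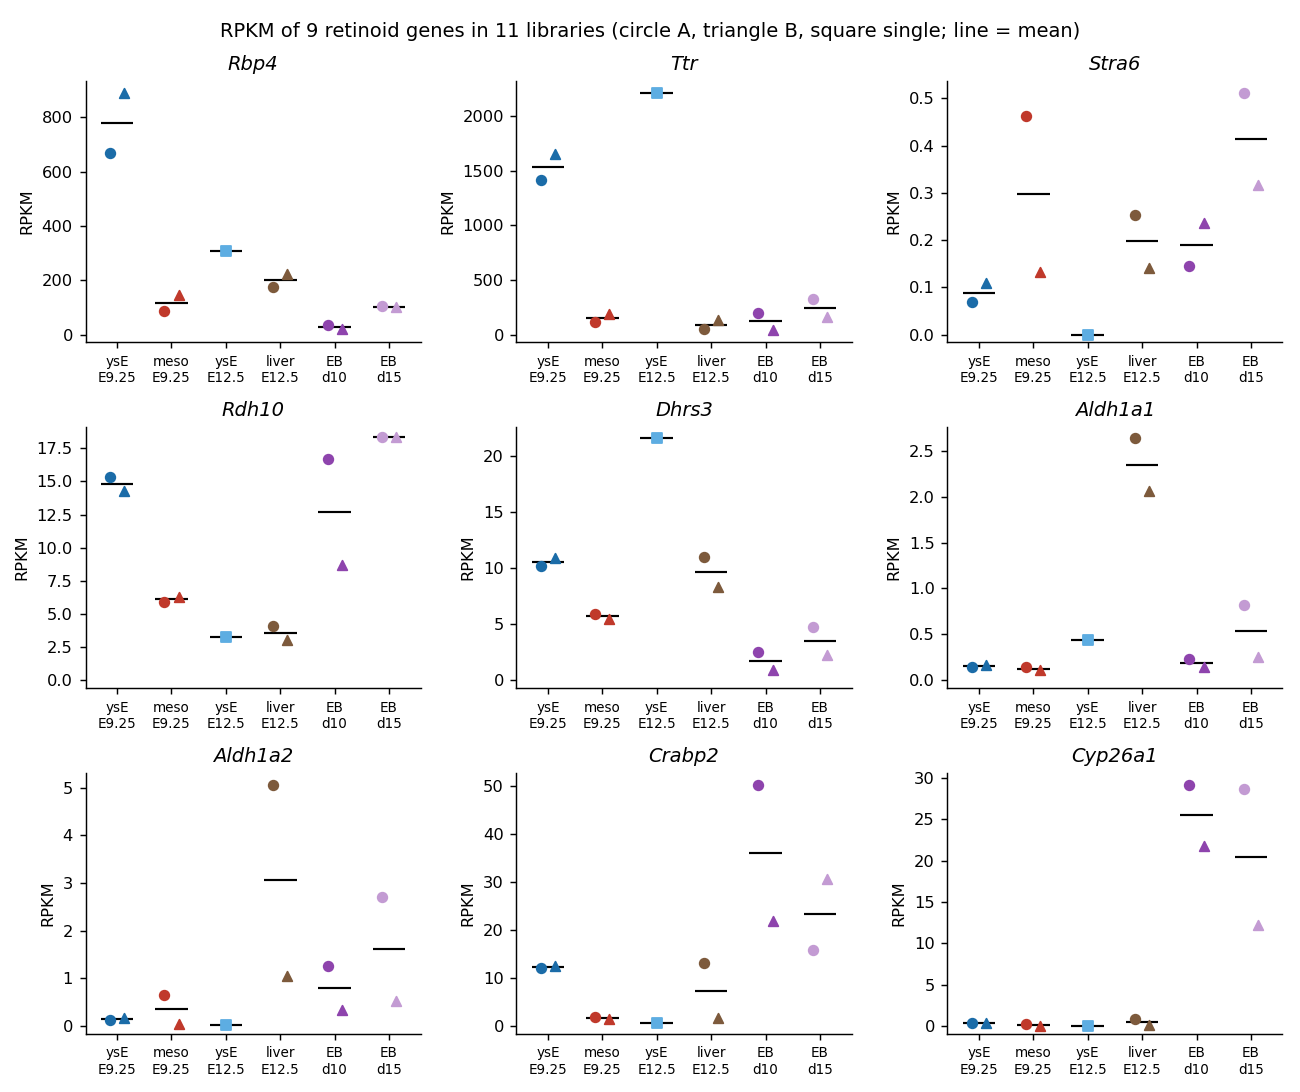
RPKM (y axis, linear, a separate scale for each gene) of the 9 genes in the 11 libraries, by tissue or culture (x axis), with circles for replicate A, triangles for replicate B, a square for the single ysE E12.5 library and lines at group means. Rbp4 and Ttr are highest in ysE, Aldh1a1 in liver and Cyp26a1 in cystic EBs, and libraries A and B of liver stand apart for Aldh1a2 and Crabp2.

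The first comparison set the endoderm layer of the E9.25 yolk sac against the mesoderm layer. Of the 9 genes, 4 were higher in ysE and 0 were lower, by edgeR's quasi-likelihood test on counts with Benjamini-Hochberg adjustment over all 24858 transcripts tested (false discovery rate 5%). Among all tested transcripts 13.7% were higher in ysE and 16.9% were lower (3401 and 4212, or 2574 and 4906 with upper quartile scaling, which left the 4 calls in place). The carriers Rbp4 and Ttr, the retinol dehydrogenase Rdh10 and the retinoic acid binding protein Crabp2 were the 4, and the median log2 fold change of the 9 genes was 1.33, beside -0.05 over all tested transcripts. All 9 genes passed the filter on low counts.

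**Figure D2:**
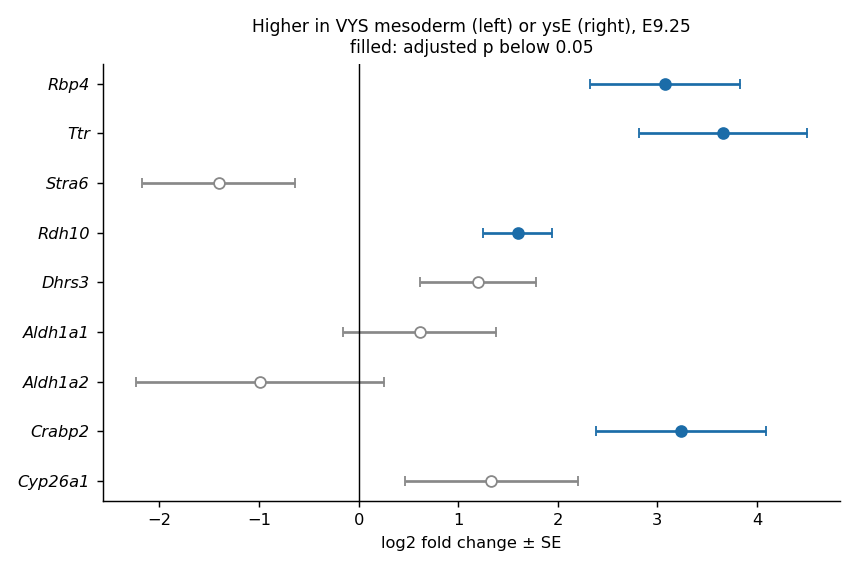
Log2 fold change of ysE over VYS mesoderm at E9.25 (x axis) with its standard error (SE) for each gene, 2 libraries a layer. Filled points passed the adjusted threshold, and 4 of the 9 points are filled, all on the ysE side.

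Rbp4 encodes the plasma carrier of retinol (GRCm38 chromosome 19, 38116620 to 38125321, minus strand). Its RPKM was 669 and 891 in ysE E9.25, 85.1 and 144 in mesoderm, 308 in ysE E12.5 and 174 and 224 in liver. Cystic EBs had 34.4 and 19.1 at d10 and 104 and 100 at d15. Every ysE library lay above every other library, and the ranges of mesoderm and d15 cystic EBs overlapped. In ysE E9.25 the gene ranked 43 among the 23337 symbols by mean RPKM. The log2 fold change of ysE over mesoderm was 3.08 ± 0.75 (SE, n = 2 libraries each, edgeR adjusted p = 0.0127).

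Ttr, on chromosome 18, encodes transthyretin, the protein that holds retinol binding protein in plasma and also carries thyroid hormone. It was the most abundant of the 9 genes in ysE at both stages, with 1412 and 1652 RPKM at E9.25 and 2211 RPKM at E12.5, and ranked 17 and 11 among all symbols. Mesoderm had 113 and 188 RPKM, liver 49.2 and 130, and cystic EBs 196 and 42.8 at d10 and 322 and 160 at d15. The ysE libraries lay above all others by more than the spread between replicates, while mesoderm, liver and cystic EBs overlapped. The log2 fold change of ysE over mesoderm was 3.66 ± 0.84 (SE, n = 2 each, adjusted p = 0.00971).

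The mesoderm level of Rbp4 was 14.7% of the ysE level, and that of Ttr was 9.83%. Both lay within the range of the 12 endoderm markers, and like the median of those markers both were higher in mesoderm library B than in A. In library A Rbp4 stood at 10.9% and Ttr at 7.36%, beside a marker median of 8.99%. In library B they stood at 18.4% and 12.3%, beside a marker median of 15.8%. Whether the mesoderm itself contained these transcripts was not tested, and in bulk tissue fewer cells of a type and less RNA per cell cannot be told apart.

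**Figure D3:**
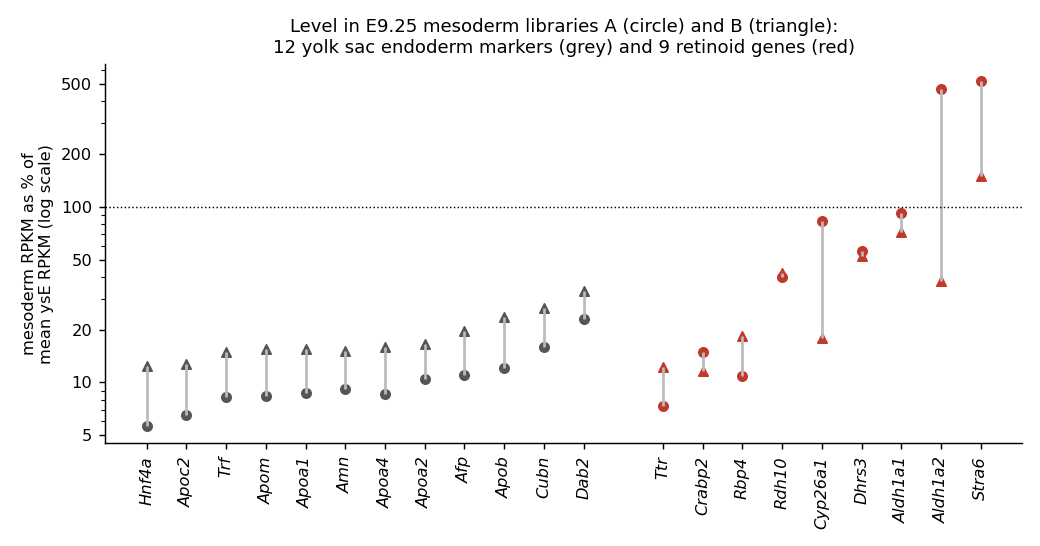
RPKM in mesoderm library A (circles) and B (triangles) as a percent of the mean ysE E9.25 RPKM (y axis, log scale), for 12 endoderm markers (grey) and the 9 retinoid genes (red), each ordered by its mean. Ttr, Crabp2 and Rbp4 lie among the markers, Rdh10, Dhrs3 and Aldh1a1 lie above the marker range, and Aldh1a2, Cyp26a1 and Stra6 differ most between the libraries.

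Stra6 encodes the membrane receptor that takes retinol from retinol binding protein (chromosome 9, 58063793 to 58154004, plus strand). It was low everywhere. Its RPKM was 0.068 and 0.109 in ysE E9.25 and 0.462 and 0.133 in mesoderm. Liver libraries had 0.254 and 0.140, and the 4 cystic EB libraries had 0.144 to 0.511. In counts these were 25 and 60 in ysE E9.25 and 163 and 55 in mesoderm, and ysE E12.5 had 0 counts of 40453779. Both mesoderm libraries lay above both ysE libraries, but the log2 fold change of -1.41 ± 0.77 (SE, n = 2 each) did not pass the test (adjusted p = 0.198). No library passed 0.511 RPKM for this receptor, while no library was under 19.1 RPKM for its ligand Rbp4.

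Rdh10 encodes a retinol dehydrogenase that makes retinaldehyde (chromosome 1, 16105882 to 16132550). Its RPKM was 15.4 and 14.2 in ysE E9.25, 5.94 and 6.27 in mesoderm, 3.23 in ysE E12.5 and 4.07 and 3.03 in liver. Cystic EBs had 16.7 and 8.69 at d10 and 18.3 and 18.4 at d15. The layers did not overlap, and mesoderm lay in turn above liver and ysE E12.5. Its mesoderm level was 41.2% of the ysE level, above the range of the 12 endoderm markers (40.1% in library A and 42.3% in library B). The log2 fold change of ysE over mesoderm was 1.60 ± 0.35 (SE, n = 2 each, adjusted p = 0.00747).

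Dhrs3 encodes the enzyme that turns retinaldehyde back into retinol, opposite to Rdh10 (chromosome 4, 144892534 to 144928209, plus strand). Its RPKM was 10.1 and 10.9 in ysE E9.25, 5.90 and 5.50 in mesoderm, 21.5 in ysE E12.5 and 10.99 and 8.34 in liver, but only 2.56 and 0.933 in cystic EBs at d10 and 4.73 and 2.25 at d15. Both ysE E9.25 libraries lay above both mesoderm libraries, with a log2 fold change of 1.2 ± 0.58 (SE, n = 2 each) that did not pass the test (adjusted p = 0.149). It passed when the spread was estimated from the yolk sac layers alone (adjusted p = 0.000267) or from the dUTP libraries alone (0.0305), and over all 15 alternatives of this comparison the adjusted p ranged from 0.000267 to 0.345. The ratio of Rdh10 to Dhrs3 in RPKM was 1.52 and 1.31 in ysE E9.25, 1.01 and 1.14 in mesoderm and 0.15 in ysE E12.5. In liver this ratio was 0.370 and 0.363, and in the 4 cystic EB libraries it lay between 3.87 and 9.32. It was highest in cystic EBs, and the layers of E9.25 did not overlap in it. These Dhrs3 values are those of transcript NM_011303. With its other transcript, NM_001172424, at 4.46 and 4.53 RPKM in liver, the ratio in liver was 0.912 and 0.669, next to 0.919 and 1.08 in mesoderm, while ysE E12.5 (0.128) stayed the lowest and cystic EBs (3.88 to 8.88) the highest.

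Aldh1a1 and Aldh1a2 encode retinaldehyde dehydrogenases, which make retinoic acid. Aldh1a1 (chromosome 19, 20492583 to 20643463, plus strand) was at 0.140 and 0.167 RPKM in ysE E9.25, 0.142 and 0.110 in mesoderm and 0.434 in ysE E12.5. Liver had 2.63 and 2.06 RPKM, above every other library, and cystic EBs had 0.233 and 0.141 at d10 and 0.817 and 0.258 at d15. The layers overlapped and did not pass the test (log2 fold change 0.61 ± 0.77 SE, n = 2 each, adjusted p = 0.595). How reads that fit both Aldh1a1 and its near-identical neighbour Aldh1a7 were counted is not given in the sources used here, so the level of Aldh1a1 is uncertain to that extent.

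Aldh1a2 (chromosome 9, 71215789 to 71296243, plus strand), the main source of retinoic acid in the early embryo, was at 0.118 and 0.163 RPKM in ysE E9.25 and at 0.662 and 0.053 in mesoderm. Mesoderm A lay above both ysE libraries and mesoderm B below both, so no direction can be given for the layers. Elsewhere it was at 0.020 RPKM in ysE E12.5 (2 counts), 5.06 and 1.05 in liver, 1.25 and 0.345 for cystic EBs at d10 and 2.71 and 0.534 at d15, with replicate A above B in each of these pairs. The log2 fold change was -0.99 ± 1.24 (SE, n = 2 each, adjusted p = 0.596), and without mesoderm library A it was 1.69 (adjusted p = 0.490, with a range of 0.323 to 0.956 over the 15 alternatives). The counts behind these values were 172 in mesoderm A and 16 in mesoderm B. Stra6 and Cyp26a1 also stood 3.47 and 4.60 times higher in mesoderm A than in B, and of genes chosen after their values were seen Sox1 (0.969 and 0.218 RPKM) and Msln (0.503 and 0.099) were also higher in A, whereas Epcam (5.49 and 10.2) and Tnnt2 (0.377 and 0.607) were lower. Of 16336 transcripts with a mean RPKM of at least 1, 45 were over 5 times higher in mesoderm A than in B and 0 were over 5 times higher in B. These counts were made after 0.1 was added to each RPKM. A gene at a low RPKM can therefore pass 5 times in plain RPKM and not be among them. The part of other tissue in mesoderm A was not tested.

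Crabp2 encodes a carrier that delivers retinoic acid to its nuclear receptor (chromosome 3, 87948693 to 87953372). Its RPKM was 12.1 and 12.53 in ysE E9.25, 1.83 and 1.43 in mesoderm, 0.747 in ysE E12.5 and 13.1 and 1.59 in liver. Cystic EBs had 50.3 and 21.8 at d10 and 15.9 and 30.6 at d15. All cystic EB libraries lay above all tissue libraries, and ysE E9.25 overlapped only with liver. The log2 fold change of ysE over mesoderm was 3.24 ± 0.85 (SE, n = 2 each, adjusted p = 0.0179). Its mesoderm level was 13.2% of the ysE level, within the range of the endoderm markers, although it was higher in library A than in B, unlike the median of the markers.

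Cyp26a1 encodes the cytochrome P450 that inactivates retinoic acid, and the gene is known to be induced by retinoic acid itself (chromosome 19, 37697738 to 37701536, plus strand). It was at 0.404 and 0.341 RPKM in ysE E9.25, 0.308 and 0.067 in mesoderm, 0.065 in ysE E12.5 and 0.860 and 0.125 in liver. Cystic EBs had 29.2 and 21.8 RPKM at d10 and 28.7 and 12.2 at d15, so the lowest cystic EB library lay far above the highest tissue library. The layers did not overlap but did not pass the test (log2 fold change 1.33 ± 0.87 SE, n = 2 each, adjusted p = 0.280). The mesoderm level was 82.7% of the ysE level in library A (63 counts) and 18.0% in library B (16 counts), and the log2 fold change was 2.75 without mesoderm A and 0.62 without B, over a range of 0.22 to 2.75 (adjusted p 0.124 to 0.819) in the 15 alternatives.

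The promoters of the genes were searched for the letters of a retinoic acid response element, a direct repeat of the hexamer AGGTCA, with G also taken at its first base and T at its base 3, spaced by 5, 2 or 1 bases, on both strands of the window from 250 bases before to 50 after each start in RefSeq (GRCm38.p6). Windows were matched for 6 of the 9 genes, and 1 of the 6 held a match. It was a repeat spaced by 5 bases at Cyp26a1, on the strand opposite to the gene, and it began 32 bases before the start used for the window (37697808). The span given for Cyp26a1 above covers all its RefSeq transcripts and begins before that start, so the match lies within the span. It is shown on the strand of the gene, from 37697770 to 37697798 of chromosome 19, with both hexamers in capitals.
Cyp26a1: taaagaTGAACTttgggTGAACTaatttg
Among 27025 genes with such windows, 31 (0.115%) held a repeat spaced by 5 bases and 186 (0.688%) held any of the 3 spacings. The match describes letters in a window and not binding.

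These layer results rested on few libraries, and their SE and p on a spread shared with all 11 libraries, cystic EBs among them. Without mesoderm library A, 0 of the 9 genes passed, with adjusted p of 0.0651 (Rdh10), 0.0856 (Ttr), 0.0947 (Crabp2) and 0.104 (Rbp4), and without ysE library B 2 passed (Rbp4 0.0562 and Crabp2 0.0605 did not). Crabp2 also lost its call without ysE library A (0.0611) and without mesoderm library B (0.106), while the adjusted p of the 4 genes ranged from 1.10e-05 to 0.106 over the 15 alternatives. In these fits the lone library was assumed to vary like the other groups, and the log2 fold changes of the 4 genes stayed between 1.15 and 4.11 over those alternatives.

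Of 45 further genes of the pathway, 41 were tested between the layers. Of these, 14 were higher in ysE and 8 in mesoderm, with a median log2 fold change of 0.78. Bcmo1, at 15.5 and 13.7 RPKM in ysE and 9.38 and 11.2 in mesoderm, was left untested through a mismatch of gene names. Its absence thus does not mean a low level. Over all tested transcripts 13.7% were higher in ysE, 16.9% were lower and the median was -0.05. The genes with the largest changes toward ysE were Adh1 (3.94 ± 1.11 SE, 6.52 and 6.86 RPKM in ysE), an alcohol dehydrogenase, Bco2 (3.51 ± 0.52), which cleaves carotenoids, Rdh12 (3.41 ± 0.44, 22.4 and 24.3 RPKM in ysE), a retinaldehyde reductase, Adh4 (3.35 ± 0.69), Aldh8a1 (3.32 ± 0.63) and Rbp2 (3.29 ± 1.06), a cellular retinol binding protein. Toward mesoderm they were the fatty acid transporter Cd36 (-4.64 ± 0.48), Fabp5 (-3.47 ± 0.63, 136 and 132 RPKM in mesoderm), which also binds retinoic acid, the degrading enzyme Cyp26b1 (-3.42 ± 1.03), the nuclear receptors Rarg (-3.39 ± 0.41) and Rarb (-3.15 ± 0.49), and Rdh1 (-2.32 ± 0.75), a retinol dehydrogenase at no more than 0.050 RPKM in these libraries. Rdh10 and Rdh12 were both higher in ysE, although their enzymes are known for opposite reactions. Crabp2 and Fabp5, which both carry retinoic acid, went in opposite directions.

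Of 22 genes known to respond to retinoic acid, 21 were tested, 2 were higher in ysE and 5 in mesoderm, with a median log2 fold change of -1.59, beside the 13.7%, 16.9% and -0.05 of all tested transcripts. Among those higher in mesoderm were Rarb, which is on the pathway list as well, and the transcription factors Meis2 (-2.80 ± 0.61 SE) and Nr2f1 (-2.29 ± 0.78). Nr2f1 was low, at 0.201 and 0.055 RPKM in mesoderm A and B and 0.007 and 0.032 in ysE. It only just passed edgeR's test (adjusted p = 0.0498), and mesoderm A was 3.655 times as high as B.

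The second set of comparisons asked how cystic EBs, whose outer cells are endoderm-like, stood against the tissues. The 4 cystic EB libraries (d10 and d15 together) were set against ysE E9.25, mesoderm E9.25 and liver E12.5 in turn, and these comparisons share the cystic EB libraries. They came from 2 ES clones, and libraries of the same clone deviated together (r = 0.64). The fits took them as 4 independent libraries, so the SE and p of these comparisons may be too small. Against ysE, 1 of the 9 genes was higher (against 27.1% of all tested transcripts) and 3 were lower (against 23.2%). With upper quartile scaling the split over all transcripts moved from 6742 higher and 5758 lower to 8888 and 3877, and the 4 calls stayed. Rbp4 was lower by a log2 fold change of -4.05 ± 0.60 (SE, adjusted p = 0.000585), Ttr by -3.52 ± 0.65 (0.00182) and Dhrs3 by -2.44 ± 0.48 (0.00259). Cyp26a1 was higher by 5.51 ± 0.94 (0.00128). These 4 calls kept their direction and passed under all 17 alternatives, among them a fit with clone JN only, in which all libraries compared were dUTP libraries. The summed RPKM of the 12 endoderm markers was 158 to 1269 in cystic EBs against 12812 and 14299 in ysE, and all 12 were lower in cystic EBs. The part of a smaller share of endoderm cells in the lower carriers was not tested. Of 6 pluripotency markers 5 were higher in cystic EBs, where their summed RPKM was 105 to 367 against 6.33 and 5.63 in ysE, and their part in the higher Cyp26a1 was not tested. Of the 41 pathway genes tested, again without Bcmo1, 11 were higher in cystic EBs than in ysE and 19 were lower. Of the 21 genes known to respond to retinoic acid 10 were higher and 3 were lower.

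Against mesoderm, 3 genes were higher in cystic EBs (against 13.9% of all tested transcripts) and 0 were lower (against 15.0%). Cyp26a1 was higher by 6.84 ± 1.02 (SE, adjusted p = 0.00156), Crabp2 by 4.05 ± 0.85 (0.00756) and Rdh10 by 1.21 ± 0.31 (0.0186). When mesoderm A was left out, and likewise when B was, Cyp26a1 alone of the 9 passed. Dhrs3 was at -1.24 ± 0.48 (adjusted p = 0.0803). It was lower in cystic EBs with clone JN only, where all libraries compared were dUTP libraries (-2.04, adjusted p = 0.00245), and in 2 other alternatives, over a range of 0.00245 to 0.240. Aldh1a2, at 1.68 (0.284), was higher with the letters A and B as a replicate block (2.08, adjusted p = 0.0444), over a range of 0.0444 to 0.922. Its log2 fold change was 4.37 without mesoderm A (172 counts) and 0.79 without B (16 counts), and 0.15 with clone JN only. Ttr (0.13 ± 0.66) and Rbp4 (-0.97 ± 0.59) did not pass.

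Against liver, 2 genes were higher in cystic EBs (against 24.6% of all tested transcripts) and 3 were lower (against 20.9%). Cyp26a1 was higher by 5.20 ± 0.93 (SE, adjusted p = 0.00189) and Rdh10 by 1.79 ± 0.32 (0.00197). Aldh1a1 was lower by -3.02 ± 0.62 (0.00385), Dhrs3 by -2.21 ± 0.48 (0.00512) and Rbp4 by -1.96 ± 0.58 (0.0213). All 8 hepatocyte markers examined were lower in cystic EBs too (median log2 fold change -5.48), as were 7 of the 8 erythroid markers. All 6 pluripotency markers were higher (median 11.1). The part of these shifts in the 5 calls was not tested. The calls on Cyp26a1, Rdh10, Aldh1a1 and Dhrs3 passed under 17 alternatives of the fit, among them one with clone A9 only, in which all libraries compared were ScriptSeq libraries. The call on Dhrs3 rested on transcript NM_011303, however. With NM_001172424 in the same fit, an alternative chosen after seeing the data, the groups overlapped (4.46 and 4.53 RPKM in liver against 0.979 to 4.73 in cystic EBs) and the call was lost (-1.03 ± 0.46 SE, adjusted p = 0.0959). In the fit with clone A9 only, Ttr was higher as well (1.28, adjusted p = 0.0468, with a range of 0.0468 to 0.892), against 0.70 ± 0.68 (0.420) with both clones. Crabp2 was at 1.65 ± 0.73 (0.0923), and it was higher in cystic EBs in 5 of the 17 alternatives, among them that without liver A (3.90, adjusted p = 0.00465, with a range of 0.00465 to 0.294). Rbp4 lost its call without liver library A (adjusted p = 0.0606) and without B (0.109), over a range of 0.00262 to 0.109.

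**Figure D4:**
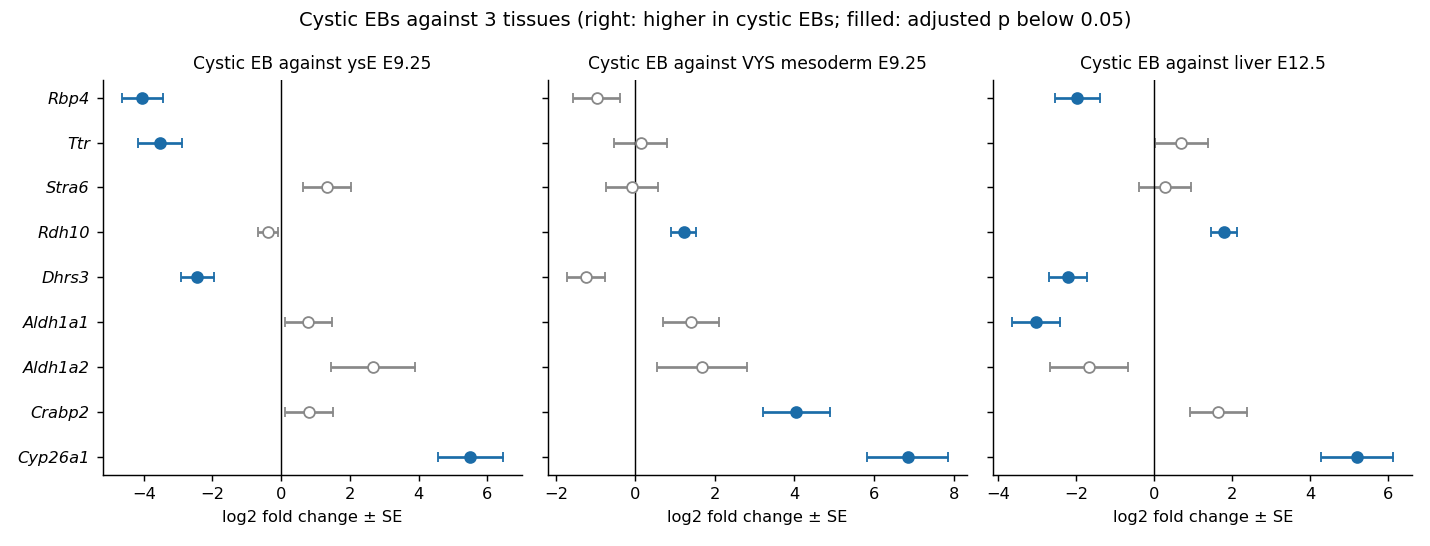
Log2 fold change of cystic EBs (4 libraries of 2 ES clones) over ysE E9.25, VYS mesoderm E9.25 and liver E12.5 (2 libraries each) with SE, filled where the adjusted p passed. Cyp26a1 is filled on the right in all 3 panels, at 5.51, 6.84 and 5.20, while Dhrs3 (transcript NM_011303) lies on the left in all 3 and is filled in 2, of which that against liver was lost with its other transcript.

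The liver libraries differed most from each other in 3 of the 9 genes. Crabp2 was 8.28 times higher in liver A than in B, Cyp26a1 6.88 times and Aldh1a2 4.81 times. For the other 6 genes the ratio of A to B lay between 0.378 (Ttr) and 1.81 (Stra6). Of genes chosen after their values were seen, Sox2 (1.4 against 0.011 RPKM), Shh (0.781 against 0.059), Krt5 (0.810 against 0.132) Tnnt2 (6.09 against 1.60) and Epcam (12.6 against 2.07) were also higher in liver A, whereas Msln was lower (0.104 against 0.204), Pax6 was at 0.031 and 0.023 and Sox1 was at 0 in both. Over 16336 transcripts, with 0.1 added to each RPKM as for mesoderm, 25 were over 5 times higher in liver A and 15 in liver B. The part of other embryonic tissue in liver A was not tested.

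Between E9.25 and E12.5 the endoderm could be compared over 1 library against 2, in which stage and library protocol cannot be told apart. The spread of the lone E12.5 library was taken from the other groups, so an SE or p here holds only if it varied like them. Of the 9 genes 0 were higher at E12.5 (against 3.9% of all tested transcripts) and 1 was lower (against 4.57%). Rdh10 fell from 15.4 and 14.2 to 3.23 RPKM, a log2 fold change of -2.28 ± 0.47 (SE, adjusted p = 0.0201), and lost this call when either E9.25 library was left out (0.0927 without A and 0.0770 without B, over a range of 9.34e-09 to 0.0927). Crabp2, at 12.1 and 12.53 against 0.747 RPKM, did not pass (-4.12 ± 1.24, adjusted p = 0.0710). It passed with DESeq2 (-3.96), with only these groups fitted (-3.98) and with limma on log2(RPKM + 0.1) (-3.87). With only these groups fitted, the spread came from the 2 E9.25 libraries alone. For every gene, a p of that fit measures how near those libraries lay to each other. Dhrs3, at 21.5 against 10.1 and 10.9 RPKM, did not pass either (0.95 ± 0.68), except with only these groups fitted (1.09), under the same limit. Stra6, with 0 counts at E12.5, did not pass, except with transcripts summed or with only these groups fitted. It was at least 4.11-fold lower than the 2 E9.25 libraries pooled, in counts scaled to library size (CPM). For this bound 3 counts in the E12.5 library were taken as the floor. Library A had 25 of the 85 pooled counts and B had 60, and the bound against A alone is lower.

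Set against liver of the same stage, where tissue and protocol cannot be told apart and the same lone library was assumed to vary like the other groups, ysE E12.5 was higher for 1 gene (against 22.6% of all tested transcripts) and lower for 3 (against 23.7%). Ttr was higher in ysE, at 2211 against 49.2 and 130 RPKM (4.67 ± 0.94 SE, adjusted p = 0.00331). All 11 alternatives used the same ysE library. The 12 endoderm markers had a median log2 fold change of 4.30 here, the 8 erythroid markers -6.21 and the 13 mesoderm and vessel markers tested -2.88. Foxf1a was left out of the 13 through a mismatch of gene names. The part of these marker differences in the change of Ttr was not tested. Rbp4, its partner in plasma, was at 308 against 174 and 224 RPKM and did not pass (0.66 ± 0.83, adjusted p = 0.537). Aldh1a1, at 0.434 against 2.63 and 2.06 RPKM, did not pass (-2.40 ± 1.03, adjusted p = 0.0810) but was lower in ysE in 4 of the 11 alternatives, over a range of 0.00379 to 0.174. Dhrs3, at 21.5 against 10.99 and 8.34 RPKM, did not pass (1.19 ± 0.68, adjusted p = 0.177), but its transcript NM_001172424, at 25.3 against 4.46 and 4.53 RPKM, was higher in ysE (2.53 ± 0.65 SE, adjusted p = 0.0105). The genes lower in ysE were Crabp2 (-3.28 ± 1.19, adjusted p = 0.0459), Aldh1a2 (0.0335) and Stra6 (0.0110). Aldh1a2 had 2 counts in ysE E12.5, which put liver A 330 times higher in CPM (exact 95% interval 91.0 to 2726, counting error only) and liver B 62.2 times higher (17.0 to 517). Stra6 was at least 15.0-fold lower in ysE than in liver A and at least 7.52-fold lower than in liver B, with the same floor. On the scale of log2(RPKM + 1) with limma Stra6 lost its call (-0.26, adjusted p = 0.289), as it did on log2(RPKM + 0.1) (-1.54, 0.0678), over a range of 0.00295 to 0.289. Aldh1a2 also lost its call with limma on log2(RPKM + 1) (-1.79, 0.0728), and Crabp2 on both scales (-1.79, 0.149 and -2.48, 0.0725). Without liver A the calls on Aldh1a2 (-5.60, adjusted p = 0.0883) and Crabp2 (-1.03, 0.284) were lost, and over 11 alternatives the adjusted p ranged from 0.000103 to 0.0883 for Aldh1a2 and from 0.00287 to 0.284 for Crabp2.

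From d10 to d15 of differentiation no transcript passed edgeR's test in either direction (0.0% higher and 0.0% lower of 24858), while 1358 had an unadjusted p under 0.05 (5.46%) and DESeq2 called 128 higher and 20 lower. Rbp4 was at 34.4 RPKM on d10 and 104 on d15 in clone A9 and at 19.1 and 100 in clone JN, and did not pass (log2 fold change 1.93 ± 0.38 SE, n = 2 each, adjusted p = 0.570). With the ES clone as a replicate block it was higher on d15 (adjusted p = 0.0415), as the only one of the 9 genes, and 82 of all transcripts were called higher and 6 lower. DESeq2 also called it (0.00184), and over 14 alternatives its adjusted p ranged from 0.00184 upward. Ttr, Stra6, Rdh10, Dhrs3, Aldh1a1 and Aldh1a2 were at a higher RPKM on d15 in both clones and did not pass. The share of all transcripts higher in both clones was not computed. The summed RPKM of the 12 endoderm markers also rose, from 505 to 1269 in A9 and from 158 to 496 in JN. That of the mesoderm markers rose in both clones too, while the erythroid and pluripotency sums moved in opposite directions. The part of these shifts in the 9 genes was not tested. Cyp26a1 was at a lower RPKM on d15 in both, with log2 ratios of -0.02 in A9 and -0.84 in JN. Crabp2 moved in opposite directions in the clones.

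**Figure D5:**
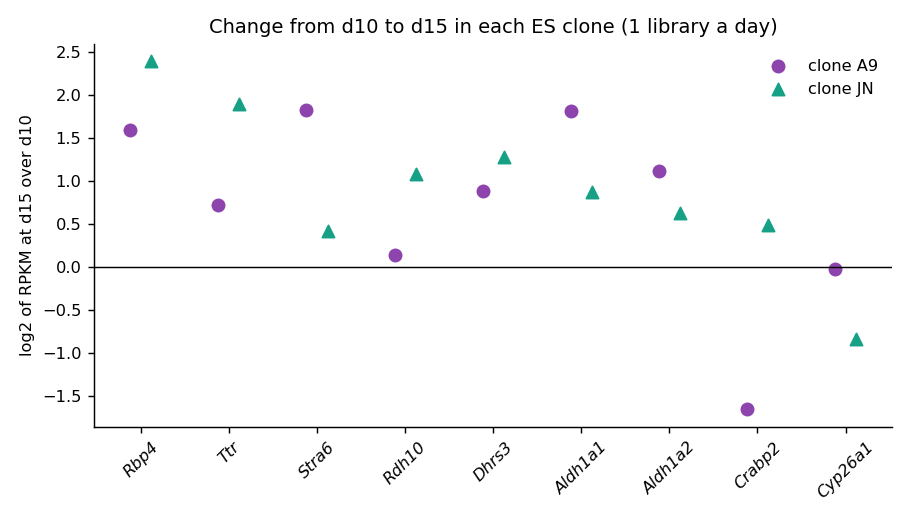
Log2 ratio of RPKM at d15 over d10 (y axis) for each gene in ES clone A9 (circles) and clone JN (triangles), 1 library a clone and day. Of the 9 genes, 7 lie above 0 in both clones, with Rbp4 at 2.39 in JN, and Crabp2 lies at -1.66 in A9 and 0.49 in JN. The share of all transcripts above 0 in both clones was not computed.

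DNA methylation was read from whole genome bisulfite libraries of ysE E12.5, liver E12.5 and d15 cystic EBs, 1 of either cross of CAST and FVB each. The cystic EBs came from ES clones of these crosses and not from those of the RNA libraries. Methylated reads were divided by all CpG reads that lay within 1 kb of a start site, or of either end of a gene for Ttr, Rdh10 and Crabp2, whose start was not matched. Rbp4, Aldh1a1 and Cyp26a1, on chromosome 19, were not analysed here. Over all CpG reads methylation was 67.8% and 60.1% for ysE, 77.6% and 79.8% for liver, and 87.0% and 82.6% for cystic EBs. With 2 libraries a tissue no test was run. A sequencing read over several CpGs was counted once at each of them. The reads given here are therefore not independent, and bounds and intervals may be too narrow.

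At the lower-numbered end of Ttr, ysE had 0 of 6 methylated reads in the FVB x CAST library, which allows a share of up to 50%, and 0 of 2 in the other. Liver had 71.4% (14 reads, Wilson 95% interval 45.4% to 88.3%) and 100% (11 reads, 74.1% to 100%). Cystic EBs had 92.3% (13 reads, 66.7% to 98.6%) and 84.6% (13 reads, 57.8% to 95.7%). Across the body of Ttr ysE had 51.1% (47 reads, 37.2% to 64.7%) and 16% (25 reads, 6.40% to 34.7%), below both liver libraries (74.5% and 83.1%) and both cystic EB libraries (92.9% and 86.1%). Both ysE libraries lay below all liver and cystic EB libraries over 4 of the 6 gene bodies read, and these libraries also had the lowest methylation over all reads. The share of all gene bodies with this order was not computed. Apart from Ttr these were Aldh1a2, where ysE had 53.7% and 52.8% (328 and 182 reads) beside 65.6% and 78.9% for liver and 86.5% and 85.2% for cystic EBs, Rdh10, with 79.8% and 69.4% in ysE against 81.8% to 91.6% elsewhere, and Crabp2, with 15.8% and 14.3% (19 and 14 reads) against 20% to 66.7%. For Rdh10 the interval of the CAST x FVB ysE library (71.9% to 85.95%) overlapped that of the CAST x FVB cystic EB library (75.5% to 86.8%). For Crabp2 the intervals of ysE overlapped that of the FVB x CAST liver library (9.5% to 37.3%), so no order can be given for either gene. The lower methylation was found over the most abundant of the 9 genes in ysE E12.5 and over Aldh1a2, which had 2 counts there, alike. Over Dhrs3 (47.0% and 72.1% in ysE) and Stra6 (73.5% and 58.8%) the ysE libraries differed from each other and overlapped with liver. Intervals cover counting error only.

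At the starts and ends of the other genes the windows held few reads. Around the Stra6 starts methylation was 65.8% ± 1.18 (SD, n = 2) in ysE, whereas liver had 58.9% ± 18.5 and cystic EBs had 69.2% ± 5.56. The ysE libraries had 20 and 6 reads there (Wilson 95% intervals 43.3% to 81.9% and 30.0% to 90.3%), so their small SD does not show precision. Around the Dhrs3 starts methylation was 22.5% ± 1.49 (SD, n = 2, 28 and 17 reads) in ysE and 14.7% ± 6.16 in cystic EBs (29 and 21 reads). It was 42.9% in the 1 liver library that had 5 reads or more (14 reads, cross FVB x CAST). At the lower-numbered end of Rdh10 it was 19.2% ± 8.25 in ysE (8 and 15 reads), against 85.7% ± 20.2 at the other end (8 and 21 reads). At the lower-numbered end of Crabp2 it was 11.5% ± 9.49 in ysE and 28.6% in both cystic EB libraries (14 and 7 reads), whose intervals overlapped those of ysE. At its other end 1 ysE library had 5 reads, of which 80% were methylated (Wilson 95% interval 37.5% to 96.4%), and this overlapped the intervals of cystic EBs (21.4% of 14 reads and 33.3% of 12), so no order can be given. Around the Aldh1a2 start the cystic EB libraries differed, with 20% (10 reads) and 71.4% (14 reads), while ysE had 21.4% (28 reads) and liver 4.55% (22 reads).

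H3K4me3, a histone mark of active promoters, was read as the authors' peaks of whole FVB VYS at E12.5, pooled from 2 litters, in which the layers cannot be told apart. Of the 6 genes with a matched start, 4 had a peak within 1 kb (46.4% of 27025 genes did). At Rbp4 and Dhrs3 the peaks had the score of 3100 that 24.7% of peaks reached or passed, whereas those at the downstream start of Aldh1a1 (52.3) and at Aldh1a2 (56.5) were near the lowest score of 50.1. Stra6 and Cyp26a1 had none. Of the genes without a matched start, Rdh10 had a peak of score 3100 at its lower-numbered end and Ttr had one within the gene, while Crabp2 had none within 1 kb of the gene. A peak of score 3100 thus lay near a start (Rbp4 and Dhrs3), at an end of the gene (Rdh10) or within the gene (Ttr). These were also the 4 of the 9 genes with the highest RPKM in ysE E12.5. The share of all genes with such a peak under these unlike rules was not computed.

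Over the 11 libraries, the likeness of other genes was taken as Pearson's r of log2(RPKM + 1) among 16336 transcripts. The pattern of Cyp26a1 was most like that of Pou5f1 (r = 0.99), a pluripotency factor, and then of Kif1a and Frzb (0.99 each). Ttr was most like Pcyox1 (0.98), Rbp4 like Tspan8 (0.94), Dhrs3 like the fibrinogen chain gene Fga (0.96), and Aldh1a1 like the hepatic transcription factor Onecut1 (0.99). Rdh10 was most like Ssfa2 (0.96), Aldh1a2 like Pgm5 (0.96) and Crabp2 like Eif4b (0.91). Rbp4 and Ttr had r = 0.74 with each other. Tissue and library protocol are partly tied, so these values describe the 11 libraries and carry no p.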

How the data were processed

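Per the authors' methods and the deposited files, reads were aligned to mm10 with GSNAP (2012-12-12) and summed over RefSeq transcripts with custom scripts and RSeQC (2.3.3), which gave the deposited counts and RPKM values. Reads shared by isoforms were counted for each of them. The authors' bisulfite files hold percent methylation and read coverage per CpG from BisSNP, and the deposited peak file holds the MACS (1.4.2) score of each H3K4me3 peak.

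Counts were fitted with edgeR's quasi-likelihood test (edgeR 4.0.16, R 4.3.3, TMM scaling, filterByExpr) over all 11 libraries in 5 groups, or 6 with the days of cystic EBs apart, and p-values were Benjamini-Hochberg adjusted over all transcripts tested. SE is the log2 fold change divided by the root of F. RPKM values were used for levels, ratios and likeness. Scripts were tested on simulated data. Methylation needed 5 reads in a window. The members and lists were chosen with earlier results of these data known. The list genes named were, by rule, up to 6 (pathway) or 4 (retinoic acid responsive) in each direction with the largest change among those that passed and did not overlap. Some genes that these rules name are not reported here. The labels call A and B biological replicates. The p-values rest on a spread estimated over all 11 libraries, which include cystic EBs of 2 clones with unlike protocols. By chi-square per degree of freedom, the cystic EB pairs differed more (617 and 754) than the tissue pairs (79.9 to 91.8). The SE and p of the yolk sac layers thus do not measure the spread of those layers alone. The libraries of each of the 5 replicate pairs differed by more than sampling noise. Same-clone cystic EB libraries deviated together from their day means (r = 0.64), and the clones pair the days as cell lines, so a fit with clone as a replicate block was made. DESeq2 (1.42.0) and limma (3.58.1) served as alternatives.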

Additional observations from a re-analysis of the deposited data

Results flagged for a closer look

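Among the 4 cystic EB libraries, Rdh10 at d10 of clone JN lay far below the others, at 8.69 RPKM against 16.7 to 18.4. Its gap to the nearest library, set against the whole range, just passed Dixon's 95% critical value, while 9 groups were examined, and chance marks about 1 group in 20. Crabp2 moved in opposite directions from d10 to d15, with a log2 ratio of -1.66 in clone A9 and 0.49 in clone JN. The difference between the clones was not tested, since each clone had 1 library a day.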

How the results depend on the processing

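The 28 alternatives include settings for methylation reads and for peaks, and 11 to 17 of them applied to a gene in a given comparison. In these fits 829 of the single-gene results kept direction and call, 34 gained a call, 31 lost one and 24 changed sign, none of them a called result. The 829 include genes that were not called at first and stayed so, and are thus no measure of how firm the calls were. The stricter threshold of 1% could neither change a direction nor add a call. For each change the cause was not tested, except that single libraries left out reduce the samples. Between the layers, 2 members were higher at a false discovery rate of 1%, and 0 to 3 when a library was left out, where Aldh1a2 ranged from -1.88 to 1.69. For cystic EBs against ysE, DESeq2 called 2 members higher (Aldh1a2 beside Cyp26a1), Rdh10 was at 0.013 with upper quartile scaling, 0.0105 with limma on log2(RPKM + 1) and 0.0068 on log2(RPKM + 0.1), and Aldh1a1 was at -0.19 with clone JN only. Against mesoderm, leaving out a library gave 1 to 3 members higher, 0 to 1 lower, Ttr from -0.31 to 0.59 and Stra6 from -0.70 to 1.03. There Stra6 was at 0.089 (upper quartile), 0.0094 and 0.072 (limma, both pseudocounts), and Ttr at -0.0127 and -0.0157 (limma) and -0.79 (JN only, where 1 member, Dhrs3, was lower). With the letters A and B as a replicate block, Dhrs3 was lower (1 member) and Aldh1a2 higher (4 members in all), with Ttr at -0.14 and Stra6 at 0.10. Against liver, Stra6 ranged from -0.12 to 0.80 with a library left out. For ysE E12.5 against E9.25, 0 members were lower at 1% and with either E9.25 library left out, 2 with transcripts summed, with DESeq2 and with limma (+ 0.1), and 3 higher and 6 lower with only these groups fitted. Against liver, 0 members were lower at 1%, 5 with DESeq2, 1 with limma (+ 1) and 1 to 4 with a library left out, 3 were higher with only these groups fitted, and Rdh10 ranged from -0.32 to 0.15. From d10 to d15, 1 member was higher with DESeq2 and with clone as the replicate block, and leaving out a library moved Aldh1a2 from -0.62 to 2.25, Crabp2 from -1.12 to 0.042 and Cyp26a1 from -1.13 to 0.27. Of the 6 genes with a matched start, 2 had a peak among the upper 50% of scores (36.3% of 27025 genes did). Likewise 2 had one over the start itself (41.6% of genes did). Not among these is the use of the other transcript of Rbp4 and Dhrs3, chosen after seeing the data. Dhrs3 then lost its call for cystic EBs against liver (-1.03) and gained one for ysE E12.5 against liver (2.53). Rbp4 kept its calls, but its 2 transcripts had nearly the same counts in every library, so this was no separate check.

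Counts over all transcripts (higher and lower) also moved. Between the layers, 3401 and 4212 became 6540 and 6620 with only the groups compared, 5309 and 6125 with dUTP libraries only, 2436 and 4744 with limma (+ 0.1), and 1372 to 1977 and 2298 to 3034 with a library left out. For cystic EBs against ysE, limma gave 7372 and 3582 (+ 1) or 8498 and 3668 (+ 0.1) in place of 6742 and 5758, and 3986 to 4137 and 3466 to 3807 passed without a ysE library. Against mesoderm, 3460 and 3727 became 4339 and 2933 with upper quartile scaling and 924 to 1032 and 1588 to 1639 without a mesoderm library. Against liver, 6112 and 5185 became 8120 and 4147 with limma (+ 0.1) and 3345 to 3893 and 3323 to 3799 without a liver library. For ysE E12.5 against E9.25, 969 and 1137 became 1240 and 876 with RLE scaling, 1297 and 704 with limma (+ 1), 2040 and 1870 with DESeq2, 5270 and 5289 with only the groups compared, and 153 to 185 and 196 to 205 without an E9.25 library. From d10 to d15, 41 and 1 passed without d15 library B. The letters of A and B pair no samples by the labels (r = -0.09 between the layers), and this block left 2819 and 3721 calls and 4 members. Depth limits Stra6, Aldh1a1 and Aldh1a2, with 66 counts or fewer each outside mesoderm A, liver and cystic EBs.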

Other observations

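Dhrs3 has 2 RefSeq transcripts. The ratio of their RPKM (NM_011303 over NM_001172424) was 2.47 and 1.84 in the liver libraries and between 0.85 and 1.001 in the other 9 libraries, which include the ScriptSeq cystic EBs of clone A9 (0.944 and 1.001). This ratio was chosen after its values were seen. That of the 2 Rbp4 transcripts lay between 1.32 and 1.36 in all 11 libraries. Their counts were nearly the same in each library (74252 and 74279 in ysE E9.25 A), as reads shared by isoforms were counted for each. The steady ratio therefore does not measure isoform use and is no contrast to Dhrs3.

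The ratio of Ttr to Rbp4 in RPKM was 2.11 and 1.86 in ysE E9.25, 1.32 and 1.31 in mesoderm, 7.19 in ysE E12.5 and 0.283 and 0.580 in liver, so that liver alone had more Rbp4 than Ttr. In cystic EBs it was 5.69 and 2.24 at d10 and 3.11 and 1.59 at d15.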
